A study of Mus musculus with 6 samples.

Results

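Cholesterol homeostasis in injured mouse carotid arteries was read through 7 genes, each taken with every probe set annotated to that gene alone, which gave 16 of the 45101 probe sets on the array. They are Srebf2, the transcription factor that switches on cholesterol synthesis, Hmgcs1, Idi1 and Sqle, enzymes of the synthesis pathway, Abca1 and Abcg1, transporters that pass cholesterol out of the cell, and Apoe, an apolipoprotein that accepts cholesterol and is also a ligand for lipoprotein receptors. The genes were chosen by name. Although uptake is part of the usual description of this set, none of the 7 encodes a lipoprotein receptor, and Apoe is the member nearest to uptake.

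Arteries came from IRF4 KO mice, in which the transcription factor IRF4 is deleted throughout the body, and from WT mice, with 3 arrays per genotype. All mice had a wire-injury operation, which strips the endothelium of the carotid artery, and vessels were taken 14 days later. Each array held RNA pooled from 3 to 5 vessels, so differences between single mice cannot be seen. The sources used here do not give strain, age, sex or the deleted part of Irf4. Values are log2 probe set intensities after RMA, a procedure of background correction, quantile normalization and summary over the probes of each set. They can be compared between arrays for one probe set, but not between genes. A log2 difference of 1 is a doubling. In bulk tissue, fewer cells of a type and less RNA per cell cannot be told apart.

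Cells sense their membrane cholesterol through the SREBP system. When sterols run low, SCAP escorts the precursor of SREBP2, the product of Srebf2, to the Golgi, where the proteases encoded by Mbtps1 and Mbtps2 release it to enter the nucleus and activate the genes of the mevalonate pathway. INSIG proteins hold it back when sterols are plentiful. In the opposite state, oxysterols activate the nuclear receptors LXR, which raise Abca1, Abcg1 and Apoe. In the artery wall this balance is best known from macrophages and smooth muscle cells that load lipoprotein cholesterol and turn into foam cells.

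A pair of arrays, IRF4 KO 1 and WT 3, differed from the remaining 4 in controls and markers, so results are also given within the pair and without it. Their poly-A controls, bacterial RNAs spiked in before the samples were labelled, averaged 5.14 in IRF4 KO 1 and 4.93 in WT 3, against 7.35 to 9.26 in the others. A list of 10 macrophage marker genes had a mean level of 8.05 in IRF4 KO 1 and 7.06 in WT 3, against 4.68 to 5.44 in the others, and 8 of the 10 genes were highest in those 2 arrays. Of 6 cartilage markers, 5 did the same, among them Col2a1 at 12.16 and 12.07 against 3.75 to 5.15. All 6 smooth muscle markers were bright, with at least 92.1% of genes below each, among them the myosin Myh11 at 11.65 to 12.30 in IRF4 KO and 11.44 to 12.22 in WT. In that list 3 of 6 were higher in IRF4 KO and 3 lower. The actin gene Acta2 read 13.84 to 13.92 in IRF4 KO and 12.62 to 12.84 in WT, and Tagln, an actin-binding protein, 13.18 to 13.30 in IRF4 KO and 12.08 to 12.27 in WT. The groups of these 2 genes did not overlap, but neither was called (adjusted p = 0.252 with limma for both), and their part in the results on the 7 genes was not tested. Of 6 measured fat cell markers, 5 were dim, among them the hormone gene Adipoq at 2.53 to 2.92 in IRF4 KO and 2.54 to 3.38 in WT. The other, Fabp4, a fatty acid carrier also made by macrophages and endothelium, read 8.84 to 9.72 in IRF4 KO and 9.34 to 9.91 in WT. Irf4 itself read 3.27, 3.75 and 3.70 in IRF4 KO and 3.90, 3.64 and 3.38 in WT, a dim signal whose groups overlapped and which does not check the genotype labels.

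The proximal promoters of 4 members are shown, each with a searched motif marked in capitals. The 250 bases before the annotated start are given 5′ to 3′ from a table of RefSeq promoters (GRCm38.p6), in which 5 of the 7 members were matched. Sqle and Abcg1 were not among those 5, and Apoe had 3 windows, which were searched but are not printed. Hmgcs1 (chr13:119690101-119690350, plus strand) is shown with a sterol response element of the form TCACNCCAC in capitals.
Hmgcs1: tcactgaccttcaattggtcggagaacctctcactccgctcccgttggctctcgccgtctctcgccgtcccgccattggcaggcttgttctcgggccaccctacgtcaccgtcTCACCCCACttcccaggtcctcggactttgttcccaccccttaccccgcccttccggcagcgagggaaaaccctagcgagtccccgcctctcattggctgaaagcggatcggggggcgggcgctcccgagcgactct
Srebf2 (chr15:82147019-82147268, plus strand) is shown with the form ATCACCCCA in capitals.
Srebf2: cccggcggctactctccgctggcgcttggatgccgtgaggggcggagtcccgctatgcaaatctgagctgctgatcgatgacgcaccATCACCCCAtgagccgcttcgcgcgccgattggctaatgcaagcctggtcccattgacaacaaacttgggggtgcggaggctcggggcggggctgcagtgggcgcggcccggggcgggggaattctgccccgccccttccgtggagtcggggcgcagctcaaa
Idi1 (chr13:8885356-8885605, plus strand) is shown with 2 CCAAT boxes, read here on the opposite strand, in capitals. This box binds NF-Y, a partner of SREBP at many of its targets.
Idi1: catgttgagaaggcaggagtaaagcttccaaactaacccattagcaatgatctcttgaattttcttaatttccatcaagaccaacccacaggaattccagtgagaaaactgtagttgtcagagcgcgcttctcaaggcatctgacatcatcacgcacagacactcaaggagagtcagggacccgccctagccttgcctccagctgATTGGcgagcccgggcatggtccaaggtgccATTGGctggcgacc
Abca1 (chr4:53159896-53160145, minus strand) is shown with an E-box, CACGTG, in capitals, and its window ends at a start site inside the annotated extent of the gene.
Abca1: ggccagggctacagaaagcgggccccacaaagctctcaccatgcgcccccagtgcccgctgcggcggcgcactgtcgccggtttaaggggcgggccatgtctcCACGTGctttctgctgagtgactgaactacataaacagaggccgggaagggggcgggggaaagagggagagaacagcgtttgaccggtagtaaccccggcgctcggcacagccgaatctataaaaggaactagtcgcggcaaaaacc
Searched on both strands, TCACNCCAC occurred in 1.05% of 32851 promoter windows of this length, ATCACCCCA in 0.24%, CCAAT in 33.8%, GGGCGG, an Sp1 box, in 32.7% and CACGTG in 6.02%. The 2 sterol element forms can overlap each other. ATCACCCCA was shortened from a longer form after the sequences had been seen. Hmgcs1 held the first form 137 bases before the start, with 3 CCAAT boxes and 2 Sp1 boxes, Srebf2 the second form at 163 bases with 1 CCAAT box and 4 Sp1 boxes, Idi1 2 CCAAT boxes and 1 Sp1 box, and Abca1 2 Sp1 boxes and 1 E-box. Neither sterol element form was found in the Idi1 or Abca1 window, and none of the 5 motifs in the 3 Apoe windows. Binding sites of LXR were not among the 5 motifs, so the search does not show whether Abca1 or Apoe carries one.

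No member differed between genotypes by the test over all genes. With limma, 0 of the 7 genes had a Benjamini-Hochberg adjusted p under 0.05 (the adjusted p was 0.999 for each), where the share over all 18194 genes was also 0%. At an unadjusted p under 0.05 the count was 1 of 7, Hmgcs1, against 1.49% of all genes. The groups did not overlap for the same 1 of 7, against 5.68% of all genes. Over probe sets the fit called 0 of 16 (0% of 45037), and 1 of 16 had an unadjusted p under 0.05, against 1.74% of all probe sets.

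**Figure D1:**
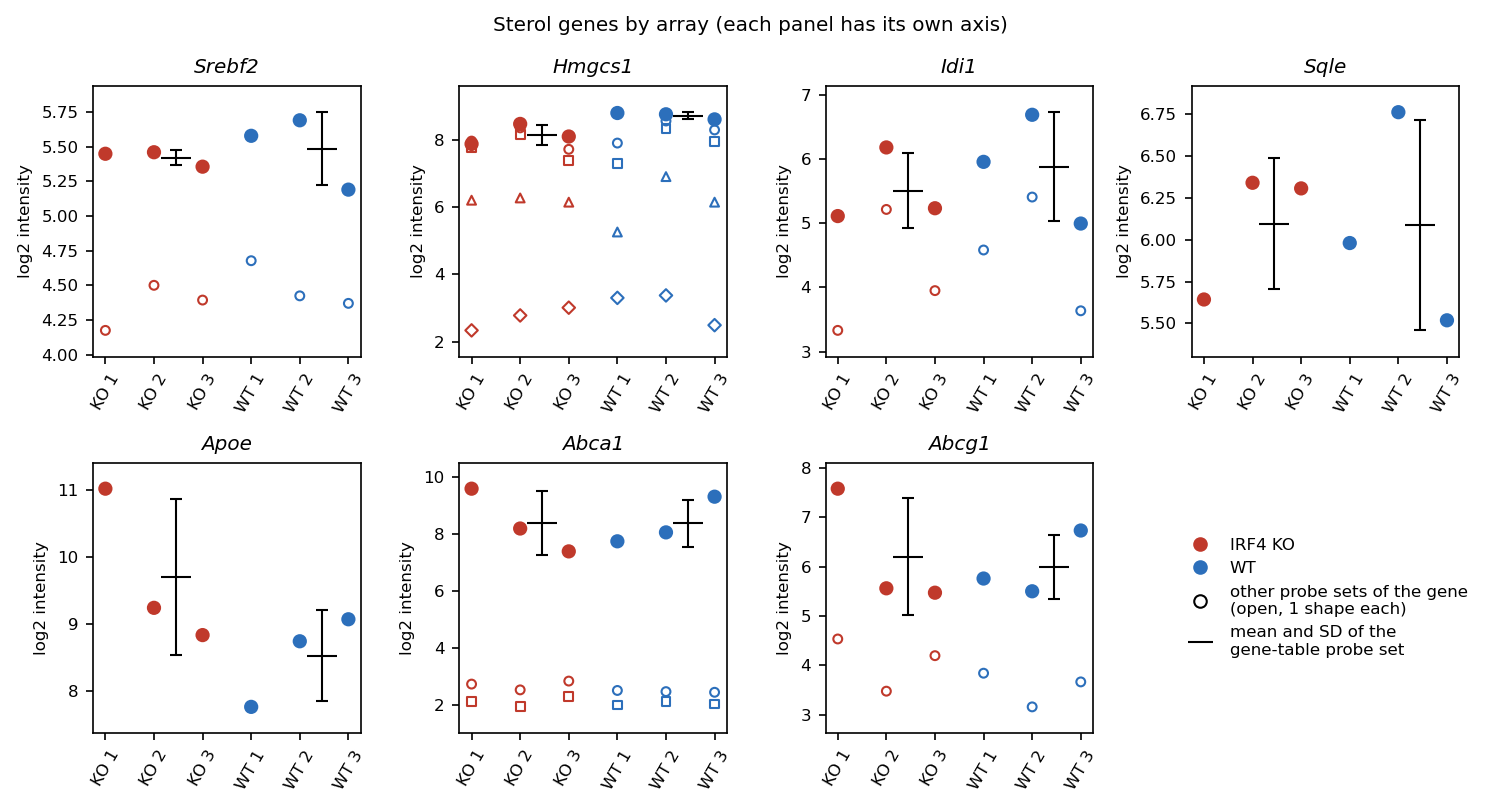
Log2 intensity of the 7 genes on each array, IRF4 KO in red and WT in blue, with filled points for the probe set used for the gene, open points for its other probe sets and bars for mean and SD (n = 3). Among filled points, those of Hmgcs1 alone separate the genotypes, and among open points those of a dim Abca1 probe set do. IRF4 KO 1 and WT 3 are the lowest arrays for Idi1 and Sqle and the highest for Abca1 and Abcg1.

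Srebf2, the head of the pathway, lies on chromosome 15 (82147269 to 82205379). It read 5.45, 5.46 and 5.36 in IRF4 KO and 5.58, 5.69 and 5.19 in WT. The IRF4 KO values fell inside the WT range, and the log2 change was -0.06 (SE 0.20, 95% interval -0.52 to 0.39). Its range over the 6 arrays, 0.50, was wider than in only 20.2% of all genes. The second Srebf2 probe set gave -0.13. In the list of SREBP control genes, which includes Srebf2, 5 of 7 were lower in IRF4 KO and 2 higher, with 0 called and a median change of -0.11, against -0.002 over all genes.

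Insig1, a retention factor that is itself a sensitive SREBP target, read 4.84, 5.85 and 5.07 in IRF4 KO, against 6.19, 6.59 and 5.31 in WT. The groups overlapped through WT 3, and the change of -0.78 (SE 0.38) had an unadjusted p of 0.072 and an adjusted p of 0.999 with limma. It was -0.48 within the low spike-in pair (IRF4 KO 1 minus WT 3) and -0.93 among the remaining 4. Srebf1, which encodes the SREBP that favours fatty acid genes, changed by -0.14 (SE 0.24).

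Hmgcs1 encodes the synthase that makes HMG-CoA, an early step of the mevalonate pathway, and lies on chromosome 13 (119690351 to 119708260), 88.9 Mb from Irf4. On the probe set used for the gene it read 7.88, 8.47 and 8.10 in IRF4 KO, against 8.79, 8.76 and 8.61 in WT. Every IRF4 KO array was below every WT array. The means were 8.15 ± 0.30 in IRF4 KO and 8.72 ± 0.10 in WT (SD, n = 3), a log2 change of -0.57 (SE 0.21, 95% interval -1.05 to -0.09), or 0.673 of the WT level. The unadjusted limma p was 0.0254 and the adjusted p 0.999. The change was -0.73 within the low spike-in pair (IRF4 KO 1 minus WT 3) and -0.49 among the remaining 4.

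The other 4 Hmgcs1 probe sets did not show the separation. Their changes were -0.24, -0.09, 0.10 and -0.35, and the groups overlapped on each of them. On the next brightest, IRF4 KO read 7.96, 8.35 and 7.72 and WT 7.90, 8.56 and 8.29. In WT 1 this probe set and the third (7.29) were lower than in WT 2 and WT 3, whereas on the probe set used for the gene WT 1 was the highest array. With the mean of the 5 probe sets the Hmgcs1 change was -0.23. The dimmest of the 5, with 25.8% of all probe sets below it, read 2.34 to 3.01 in IRF4 KO and 2.49 to 3.38 in WT.

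Idi1 encodes the isomerase that interconverts the isoprene building blocks. It lies on chromosome 13 (8885606 to 8892396), 21.9 Mb from Irf4, the nearer of the 2 members on that chromosome. It read 5.11, 6.18 and 5.23 in IRF4 KO and 5.96, 6.69 and 5.00 in WT. WT 3 and IRF4 KO 1 were the lowest arrays of the 6, and the genotypes overlapped over most of their range. The change of -0.37 (SE 0.45, 95% interval -1.40 to 0.66) was smaller than the SD within either genotype, 0.59 in IRF4 KO and 0.85 in WT. It was 0.12 within the low spike-in pair (IRF4 KO 1 minus WT 3) and -0.62 among the remaining 4, and without WT 2 it was 0.03.

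The second Idi1 probe set kept this order of arrays almost exactly. It read 3.33, 5.22 and 3.95 in IRF4 KO and 4.58, 5.41 and 3.64 in WT, again lowest in IRF4 KO 1 and WT 3, with a change of -0.38 (SE 0.55).

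Sqle encodes squalene epoxidase, the first oxygen-requiring step on the way to sterols, and lies on chromosome 15 (59315092 to 59331193) with 1 probe set. It read 5.64, 6.34 and 6.30 in IRF4 KO and 5.98, 6.76 and 5.52 in WT. IRF4 KO 1 and WT 3 were again the lowest pair, and the means, 6.10 ± 0.39 in IRF4 KO and 6.09 ± 0.63 in WT (SD, n = 3), were 0.01 apart (95% interval -0.77 to 0.79). The sign of so small a difference turned with array median subtraction (-0.025). The interval admits changes of up to about 0.8 either way, so these arrays do not show that Sqle was unaffected.

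Apoe had the largest difference in means of the 7 genes. It lies on chromosome 7 (19696244 to 19701310) and read 11.02, 9.24 and 8.83 in IRF4 KO, against 7.76, 8.74 and 9.07 in WT. The groups overlapped because WT 3 was above IRF4 KO 3. Means were 9.70 ± 1.16 in IRF4 KO and 8.52 ± 0.68 in WT (SD, n = 3), a change of 1.17 (SE 0.57, 95% interval -0.13 to 2.48) or 2.26-fold. The unadjusted limma p was 0.0712 and the adjusted p 0.999. The change was 1.95 within the low spike-in pair (IRF4 KO 1 minus WT 3) and 0.79 among the remaining 4. Leaving out IRF4 KO 1, the array with the highest macrophage markers, gave 0.51, and leaving out WT 1 gave 0.79. Apoe is made in quantity by macrophages as well as smooth muscle cells. The part of macrophage content in the Apoe difference was not tested.

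Abca1, on chromosome 4 (53030789 to 53159988), hands cholesterol to lipid-poor apolipoproteins. It read 9.60, 8.19 and 7.39 in IRF4 KO and 7.74, 8.06 and 9.31 in WT. IRF4 KO 1 and WT 3 were the highest arrays, by more than 1 log2 unit over the rest, and IRF4 KO 3 the lowest. The means, 8.39 ± 1.12 in IRF4 KO and 8.37 ± 0.83 in WT (SD, n = 3), were 0.02 apart (95% interval -1.32 to 1.36), and with array median subtraction the difference was -0.014. Without IRF4 KO 1 the change was -0.58, and without WT 3 it was 0.52.

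The other 2 Abca1 probe sets lay near the floor of the array, with 17.6% and 5.3% of all probe sets below them. One read 2.72, 2.52 and 2.83 in IRF4 KO and 2.50, 2.46 and 2.43 in WT. Its genotypes did not overlap, by 0.02 log2 units at the nearest, where 5.99% of all probe sets had no overlap, and limma did not call it. Neither showed the high values in IRF4 KO 1 and WT 3 that the bright Abca1 probe set did.

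Abcg1, on chromosome 17 (31057694 to 31117984), loads cholesterol onto mature HDL. It read 7.58, 5.56 and 5.47 in IRF4 KO and 5.76, 5.50 and 6.73 in WT. IRF4 KO 1 and WT 3 were once more the highest pair, and the other 4 arrays lay within 0.29 of each other. The change was 0.21 (SE 0.57, 95% interval -1.10 to 1.52), 0.85 within the low spike-in pair (IRF4 KO 1 minus WT 3) and -0.11 among the remaining 4. The second Abcg1 probe set read 4.53, 3.47 and 4.19 in IRF4 KO and 3.84, 3.16 and 3.66 in WT, a change of 0.51 (SE 0.31), with IRF4 KO 1 highest and WT 3 in the middle.

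**Figure D2:**
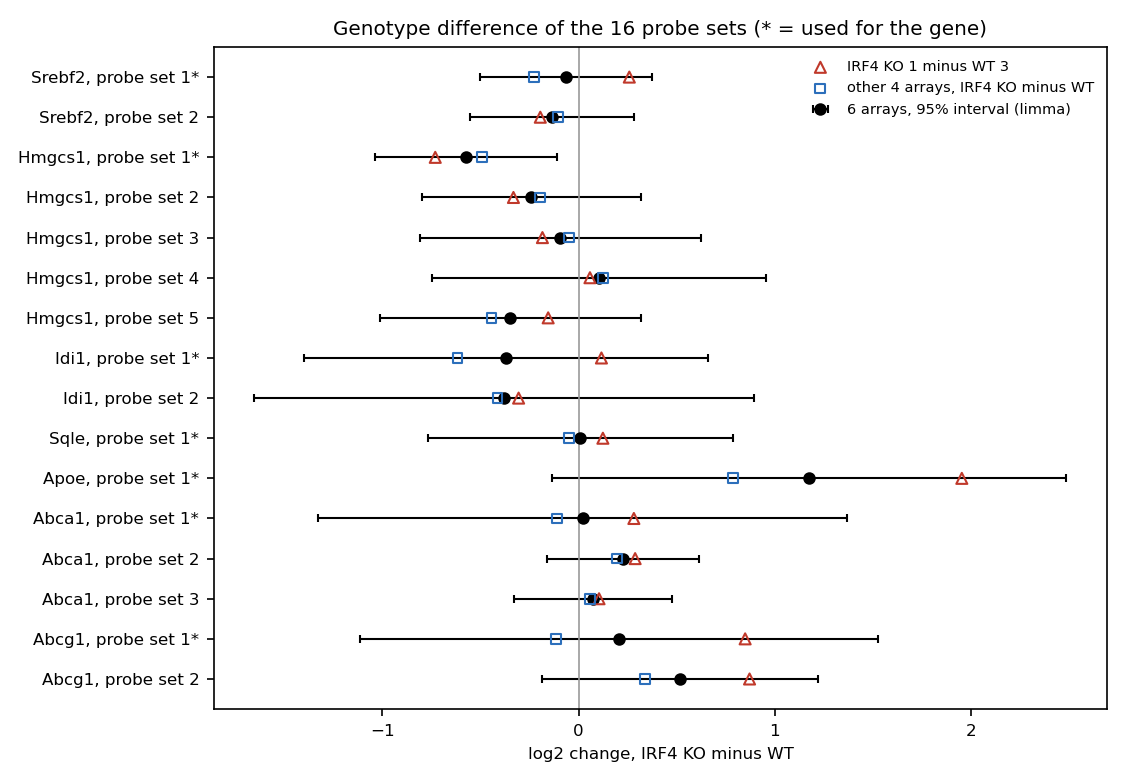
Log2 change (IRF4 KO minus WT) of the 16 probe sets with its 95% interval (points and bars), the difference between IRF4 KO 1 and WT 3 (triangles) and that over the other 4 arrays (squares). Probe sets of a gene run from bright to dim. Only the interval of the first Hmgcs1 probe set leaves out 0, and Apoe has the largest change, 1.17.

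The spread among arrays was larger for Abca1, Abcg1 and Apoe, on the probe sets used for them, than for nearly all genes. The pooled SD within genotypes was 0.98 for Abca1, 0.96 for Abcg1 and 0.95 for Apoe, above that of 98.3%, 98.2% and 98.1% of all genes. It was 0.73 for Idi1 (96.1%), 0.52 for Sqle (88.9%), 0.22 for Hmgcs1 (30.9%) and 0.19 for Srebf2 (21.5%), and the median gene had 0.287. In the arrays with high macrophage markers, IRF4 KO 1 and WT 3, Idi1 and Sqle were below the other 4 arrays, and Abca1 and Abcg1 above them. On the probe sets used for them, Srebf2, Hmgcs1 and Apoe followed neither order. The members that did were 2 of 7 (28.6%) in each direction, against 19.8% of all genes lowest and 17.4% highest in that pair. By probe set, 5 of 16 (31.2%) were lowest there, dimmer ones of Srebf2 and Hmgcs1 included, against 22.2% of all probe sets. Highest there were 2 of 16 (12.5%), near the 12.9% of all probe sets. Over the lists, 5 of 19 synthesis genes (26.3%) were lowest and 3 of 12 efflux and LXR genes (25%) highest there. Larger shares were highest there among SREBP control genes (4 of 7, 57.1%) and uptake and lysosomal genes (5 of 10, 50%). Fatty acid genes had 3 of 9 (33.3%) and storage genes 1 of 2 (50%), so high values there were not particular to efflux. Lowest there were 1 of the 10 uptake and lysosomal genes and 1 of the 12 efflux and LXR genes. Most genes of the synthesis list and of the efflux and LXR list did not follow the order, although the averages of both lists did. The RNA amount was given as 400 ng for every array. The part of macrophage content, cartilage and any departure from that amount in this pattern was not tested.

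Beyond the 7 members, 59 of 68 genes of the pathway lists were measured by a probe set of 1 gene, members included, and 0 of them had an adjusted p under 0.05 with limma. The other 9 were not analysed here. Of all 59 genes, 34 were lower and 25 higher in IRF4 KO, with a median change of -0.07. Over the whole array 49.7% of genes were higher in IRF4 KO. Unadjusted p was under 0.05 for 3 genes, Hmgcs1, Pmvk and Acly, all lower in IRF4 KO. The share over all genes at that level was 1.49% in either direction and 1.08% lower in IRF4 KO.

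In the synthesis list 12 of 19 genes were lower in IRF4 KO and 7 higher, with a median of -0.14. The groups did not overlap for 3 genes, against 5.68% of all genes in either direction. All 3 were lower in IRF4 KO, against 3.31% of all genes. Besides Hmgcs1 these were Pmvk, the phosphomevalonate kinase, and Tm7sf2, a sterol reductase. Pmvk read 5.42, 5.35 and 5.29 in IRF4 KO and 5.96, 5.69 and 5.73 in WT, a change of -0.44 (SE 0.18). The unadjusted limma p was 0.038 and the adjusted p 0.999. The change was -0.31 within the low spike-in pair (IRF4 KO 1 minus WT 3) and -0.51 among the remaining 4. Tm7sf2 read 5.02 to 5.41 in IRF4 KO and 5.50 to 5.61 in WT, a change of -0.31 (SE 0.19). The lower direction was not shared by the whole list. Msmo1, a methyl sterol oxidase, changed by 0.29 (SE 0.43) and Fdps, which makes farnesyl diphosphate, by 0.19 (SE 0.34). Over the pair IRF4 KO 1 and WT 3 alone 10 of 19 genes were higher, against 4 of 19 over the other 4 arrays. Over all genes these counts were 9126 and 9121 of 18194.

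The efflux and LXR list held 12 measured genes, of which 9 were higher in IRF4 KO and 3 lower, with a median of 0.17. None of the groups separated. Nr1h3, which encodes LXR alpha, read 4.46, 4.62 and 4.81 in IRF4 KO and 4.60, 4.56 and 4.14 in WT, a change of 0.20 (SE 0.21). Apoc1, a small apolipoprotein next to Apoe, was dim and changed by 0.25 (SE 0.18). Ch25h, which makes the oxysterol 25-hydroxycholesterol, read 5.71, 3.76 and 3.98 in IRF4 KO and 4.07, 3.68 and 5.28 in WT, and was highest in IRF4 KO 1 and WT 3, as Abcg1 was. Over the pair of those arrays 11 of the 12 genes were higher in IRF4 KO 1, and over the other 4 arrays 5 of 12 were higher in IRF4 KO. The same counts over all genes were 9126 and 9121 of 18194, and the first rests on 1 array per genotype.

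Uptake and lysosomal genes were split evenly, 5 higher and 5 lower of 10, with a median of -0.02 and 0 called. Scarb1, the HDL receptor, changed by -0.23 (SE 0.26), and its 2 dimmer probe sets by -0.97 and -1.05 with unadjusted limma p values of 0.344 and 0.276. Npc1, which exports cholesterol from lysosomes, changed by 0.15 (SE 0.25). Lipa, the lysosomal acid lipase that frees cholesterol from its esters, read 7.89, 6.84 and 6.32 in IRF4 KO and 6.99, 6.77 and 7.72 in WT and was highest in IRF4 KO 1 and WT 3, as were 5 of the 10 genes of the list. Both measured storage genes were lower in IRF4 KO with 0 called. Nceh1, an ester hydrolase, changed by -0.14 (SE 0.22) and Plin2, a lipid droplet coat protein, by -0.05 (SE 0.34).

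Fatty acid synthesis, the arm under the other SREBP gene, was lower in 7 of 9 genes, with a median of -0.13 and 0 called. Acly, which makes cytosolic acetyl-CoA for both fatty acids and sterols, read 7.96, 8.17 and 7.48 in IRF4 KO and 8.66, 8.07 and 9.03 in WT, a change of -0.72 (SE 0.29). The unadjusted limma p was 0.0388 and the adjusted p 0.999. Another bright Acly probe set changed by -0.02, and the 4 further ones by -0.32 to 0.37. Acaca, the acetyl-CoA carboxylase, changed by -0.36 (SE 0.20) on the probe set used and by 0.32 on a dim one.

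**Figure D3:**
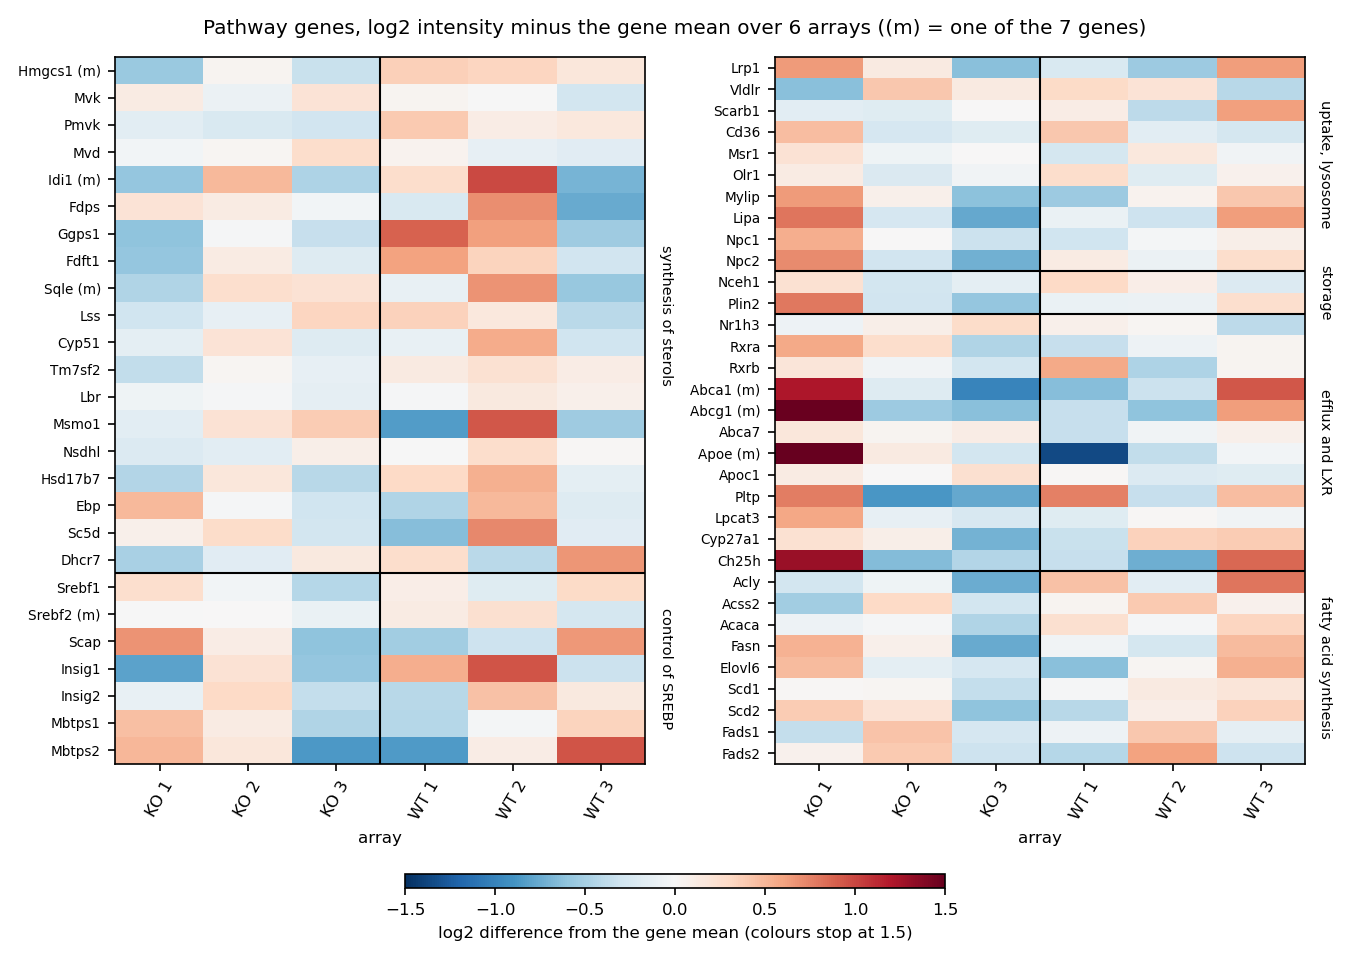
Log2 intensity of the 59 measured pathway genes on each array, as the difference from the gene's mean over the 6 arrays (red higher, blue lower), IRF4 KO left of the line and WT right of it. Idi1 and Sqle are low, and Abca1, Abcg1 and Ch25h high, in both IRF4 KO 1 and WT 3.

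Averaged over its 19 genes and set against the gene means, the synthesis list stood at -0.22, 0.06 and -0.08 in IRF4 KO and 0.07, 0.38 and -0.20 in WT. WT 2 was the highest array and IRF4 KO 1 and WT 3 the lowest. The efflux and LXR list stood at 0.71, -0.15 and -0.35 in IRF4 KO and -0.21, -0.23 and 0.23 in WT, with the same 2 arrays highest. Macrophage markers stood at 2.23, -1.15 and -0.97 in IRF4 KO and -0.39, -0.96 and 1.24 in WT. The genotypes overlapped on all of these lists.

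**Figure D4:**
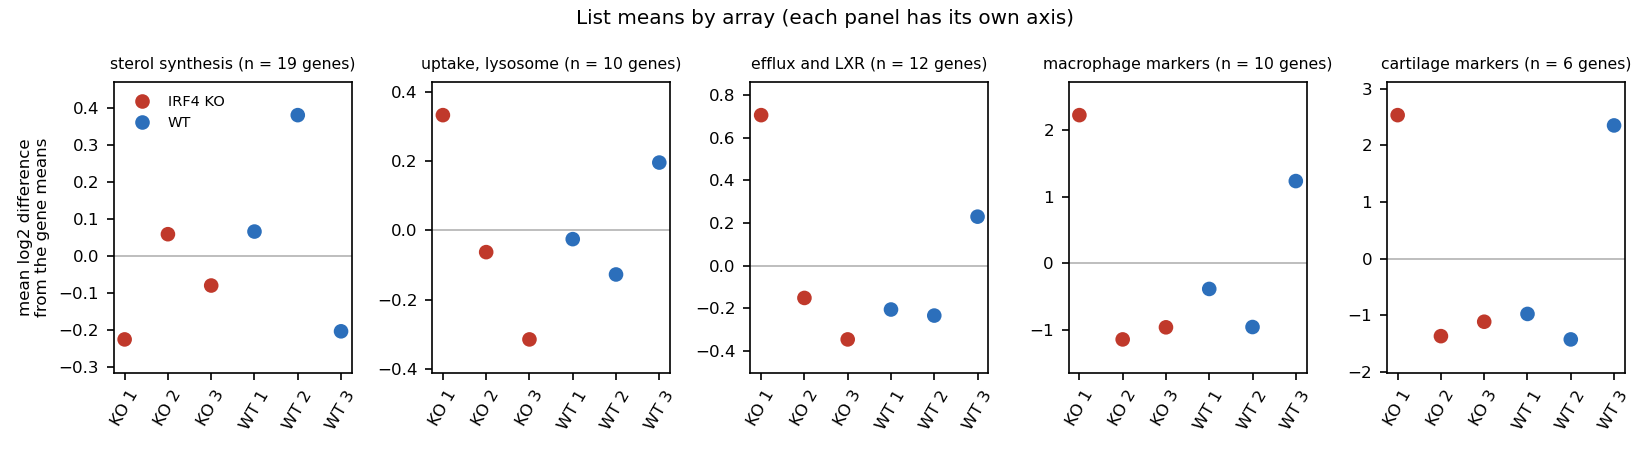
Mean log2 difference from the gene means on each array for 3 pathway lists and 2 marker lists, IRF4 KO in red and WT in blue. IRF4 KO 1 and WT 3 are the lowest arrays for sterol synthesis, at -0.22 and -0.20, and the highest for the other 4 lists.

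Genes whose arrays varied most like a member were found by the root mean square difference of centred log2 values over the 6 arrays, among 9097 genes above the median level. Nearest to Sqle were Parg, a glycohydrolase of poly(ADP-ribose), at 0.11 and Ckb, the brain-type creatine kinase, at 0.12. Nearest to Idi1 were Rrad, a small GTPase of muscle, at 0.19 and Tnfrsf11a, the receptor RANK, at 0.20. Nearest to Abca1 were Fli1, an ETS transcription factor of blood and endothelial cells, at 0.12 and Slc5a3, an inositol transporter, at 0.13. Nearest to Abcg1 were Cd276, an immune checkpoint ligand, at 0.12 and P2ry6, a receptor for uridine nucleotides, at 0.14. Apoe had no neighbour as close, with Ifit3, an interferon-induced gene, at 0.32 and Ctsz, a lysosomal protease, at 0.36. None of these 10 genes belonged to the pathway lists.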

How the data were processed

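Log2 intensities per probe set were deposited by the authors, who used RMA in Affymetrix Expression Console per the submitters' processing notes. The sources used here give neither its version nor its settings. RMA compresses changes of dim probe sets. Gene symbols came from the annotation of the array platform, where 34958 of 45101 had 1 symbol. Each of 18194 genes took its brightest probe set. The genotypes were tested in R 4.3.3 by limma 3.58.1 (lmFit and eBayes with no trend, two-sided), with p-values adjusted over all genes, and again over the 45037 probe sets that are not Affymetrix controls. Changes are IRF4 KO minus WT, and SE is the moderated standard error. The fit was checked on simulated data.

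The members, lists and alternatives were chosen with earlier results of these data known. Named genes are the members, Insig1, Srebf1 and Nr1h3, genes with an unadjusted p under 0.05 and the 2 with the smallest p per list. Some items the rule held are not reported here. Tm7sf2, Msmo1, Fdps, Ch25h, Lipa and the marker genes were named after their values were seen. The labels call the arrays of a genotype biological samples, and their number limits the precision. Alternatives were a filter on dim features, array weights, a robust intensity trend, quantile normalization, array median subtraction, a replicate block, a block for arrays with low spike-in controls, leaving arrays out, the mean of probe sets and an unadjusted threshold.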

Additional observations from a re-analysis of the deposited data

How the results depend on the processing

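Adjusted over all features with limma, 0 of the 7 genes, 0 of the 16 probe sets and 0 genes of each list were called under every alternative run. At an unadjusted p under 0.05 the counts were 271 of all genes, 1 of the 7 genes, 1 of the 16 probe sets, 2 synthesis genes and 1 fatty acid gene. Array weights called 68 of all genes (its estimate stopped before convergence), and leaving out WT 3 and IRF4 KO 1 called 5; the cause was not tested.

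Hmgcs1 stayed below 0 in all 16 alternatives (-0.73 to -0.23) and Apoe above 0 (0.51 to 1.61). Several of these could not turn a sign. The fit over all probe sets, the robust intensity trend, the dim filter and both blocks leave the change as it was. So does the mean of probe sets for Apoe, which has 1 probe set. The lowest adjusted limma p values were 0.193 for Hmgcs1 and 0.216 for Apoe. Both came from array weights, where the changes were -0.28 and 0.58. Other members turned sign. Sqle was -0.025 with array median subtraction, -0.19 with array weights and -0.048 without WT 3 and IRF4 KO 1. Abca1 was -0.014 with median subtraction and -0.11 without those arrays, and Abcg1 -0.10 with array weights and -0.11 without those arrays. With 1 array left out the ranges were -0.21 to 0.037 for Srebf2, -0.27 to 0.35 for Sqle, -0.81 to 0.033 for Idi1, -0.58 to 0.52 for Abca1 and -0.48 to 0.57 for Abcg1. The scalings moved the median of all genes by under 0.1.

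Deviations of same-numbered arrays from their genotype means correlated at -0.52, 0.37 and -0.62 across genes, which are not independent. IRF4 KO 1 was most like WT 3, IRF4 KO 2 like WT 2 and IRF4 KO 3 like WT 1. Deviations of 3 arrays from their shared mean are tied to each other. These values therefore cannot show whether same-numbered arrays were handled together. With the replicate block 0 genes were called, and the Hmgcs1 change was -0.57, which a balanced block leaves as it was. Dim probe sets have no detection value here, so absence of a transcript cannot be read from them.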
